A study of Mus musculus with 6 samples.

Results

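The genes described here encode the adhesion proteins that assemble around integrin-linked kinase (ILK) and the proteins that switch integrins on. They were chosen by name as Lims1 and Lims2, which encode the PINCH adaptors, Parva, Parvb and Parvg, which encode α-, β- and γ-parvin, Rsu1, which encodes a Ras suppressor bound to PINCH1, Fermt1 and Fermt2, which encode kindlin-1 and kindlin-2, Tln1, which encodes talin-1, and Vcl, which encodes vinculin. All 10 genes were found among the 43274 genes of the deposited tables. The data are RNA-seq of hair follicle bulge stem cells (bulge SCs), sorted as CD34+/α6 integrin hi at postnatal day 21, with 3 libraries for each of the control and ILK-K5 genotypes. Controls, labelled ILK +/-, were littermates heterozygous for the floxed Ilk allele (ILK fl/+), ILK-K5 mice, labelled ILK -/-, were ILK fl/fl, and both genotypes carried K5-Cre. Cre was thus present in every library, and its K5 promoter acts in keratinocytes of the basal epidermis and hair follicle but not in blood cells or fibroblasts. The labels do not say whether each library came from a separate mouse, so p-values measure the spread between these libraries.

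ILK is a pseudokinase that binds the cytoplasmic tail of β integrins. It holds PINCH on its ankyrin repeats and a parvin on its kinase-like domain, and this trimer, the IPP complex, is stabilised by its own assembly and links integrins to actin through the parvins. Talin and kindlin bind the same β tail and raise the affinity of integrins for matrix, and vinculin ties stretched talin to actin filaments. In skin, kindlin-1 is the main kindlin of keratinocytes, whereas γ-parvin and kindlin-3 are known mainly from blood cells.

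The libraries held from 8228019 to 11969072 reads assigned to genes, and the values below are normalized counts, in which the reads on a gene are scaled by a size factor for each library. A single read was worth between 0.726 and 1.52 normalized counts. The libraries of the genotypes differed in cell type markers. The 8 general leukocyte markers summed to between 115 and 221 normalized counts in control libraries and to between 6314 and 8133 in ILK-K5 libraries, and the 10 macrophage markers to between 102 and 143 and to between 12662 and 19647. Every marker of both lists was called higher, including Ptprc (CD45) and Lyz2 (lysozyme). Fibroblast markers summed to between 703 and 779 in controls and to between 1532 and 2493 in ILK-K5 libraries, with 1 of 4 tested markers called higher, and smooth muscle markers to between 27.4 and 74.3 and to between 126 and 168, with 0 of 3 called. Of the 7 bulge SC markers, all tested, 1 was called lower and 0 higher, 2 had a positive and 5 a negative fold change, and the median was -0.10. They summed to between 44981 and 109112 normalized counts in controls and to between 22331 and 49396 in ILK-K5 libraries, with overlap. For 2 of the 7, every ILK-K5 library lay below every control. The called marker was Cd34 (log2 fold change -1.90 ± 0.37 SE, limma adjusted p = 0.0239). The sorting marker Itga6 had 2165 ± 249 (SD, n = 3) and 2790 ± 335 normalized counts in control and ILK-K5 libraries, and Krt5 had 40023 ± 21597 and 32525 ± 9684, with neither called. In bulk RNA a different number of cells of one type and a different amount of RNA per cell cannot be told apart.

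The targeted gene itself was no check of the labels. Ilk had 10.6, 16.7 and 38.5 normalized counts in the control and 14.8, 30.9 and 29.2 in the ILK-K5 libraries, with overlapping genotypes (log2 fold change 0.30 ± 0.64 SE, limma adjusted p = 0.933). Of its exon bases 89.7% lie over exons of Taf10 or Rrp8 on the opposite strand, and the library kit does not mark strand.

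Parvb and Parvg, the only members whose means differed more than 2-fold upwards between genotypes, are neighbours on mouse chromosome 15 (GRCm38). Parvb occupies chr15:84232043-84315688 and Parvg chr15:84324026-84342978, both on the plus strand, and neither shares exon bases with another annotated gene. The 250 bases before their annotated starts (RefSeq, GRCm38.p6, plus strand, 5′ to 3′) are printed because both genes were near 0 in controls and higher in every ILK-K5 library. Capitals mark GGGCGG, the GC box bound by Sp family factors, which was searched on both strands and is present in 32.7% of the 32841 mouse promoter windows of the same length. The Parvb window spans chr15:84231793-84232042, and the Parvg windows span chr15:84324470-84324719 for the first and chr15:84325869-84326118 for the second of its starts.
Parvb: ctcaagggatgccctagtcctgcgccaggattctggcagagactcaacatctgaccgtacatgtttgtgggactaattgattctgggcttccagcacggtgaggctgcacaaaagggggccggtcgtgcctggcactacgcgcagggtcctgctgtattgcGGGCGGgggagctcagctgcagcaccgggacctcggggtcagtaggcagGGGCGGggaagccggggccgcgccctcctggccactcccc
Parvg, first start: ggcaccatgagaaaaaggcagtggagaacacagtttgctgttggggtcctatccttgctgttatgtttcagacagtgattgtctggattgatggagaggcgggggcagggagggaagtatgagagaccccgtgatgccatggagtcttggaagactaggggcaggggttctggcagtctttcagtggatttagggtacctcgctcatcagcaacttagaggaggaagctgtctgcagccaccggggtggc
Parvg, second start: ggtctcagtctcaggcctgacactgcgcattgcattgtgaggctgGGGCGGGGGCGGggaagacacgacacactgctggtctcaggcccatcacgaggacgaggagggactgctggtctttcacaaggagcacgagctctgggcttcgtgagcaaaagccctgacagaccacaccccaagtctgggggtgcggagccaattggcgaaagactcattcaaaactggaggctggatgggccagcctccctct
Parvb and the second start of Parvg each held 2 GC boxes, and the first start of Parvg held none. GAGGAAGT, a sequence recognised by the myeloid factor PU.1 (both strands, 2.44% of all windows), was in none of these 3 windows. Of the 11 starts of the 8 members with a promoter sequence, 1 start of Lims1 held it. The CArG box, the site of serum response factor, was present in 1.47% of all windows and in those of Fermt2 (chr14:45530066-45530315, minus strand) and Vcl (chr14:20929148-20929397, plus strand), which are shown with this box alone in capitals.
Fermt2: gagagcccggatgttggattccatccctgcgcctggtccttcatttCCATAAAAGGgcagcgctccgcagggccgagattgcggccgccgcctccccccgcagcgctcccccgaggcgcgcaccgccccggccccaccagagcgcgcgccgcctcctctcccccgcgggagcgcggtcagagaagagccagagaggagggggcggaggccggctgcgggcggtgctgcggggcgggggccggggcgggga
Vcl: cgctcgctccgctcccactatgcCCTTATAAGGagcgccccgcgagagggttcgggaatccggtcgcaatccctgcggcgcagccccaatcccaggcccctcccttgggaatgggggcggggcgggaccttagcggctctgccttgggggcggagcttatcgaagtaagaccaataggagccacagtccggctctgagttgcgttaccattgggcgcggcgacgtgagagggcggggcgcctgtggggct
The CArG box began 204 bases before the start of Fermt2 and 227 bases before that of Vcl. These matches describe the sequence only, and no binding was measured.

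The first comparison asked whether the partners that ILK holds in the IPP complex differed in mRNA level between control and ILK-K5 bulge SCs. Of the 10 members, 8 had a mean of at least 10 normalized counts and were tested together with all other such genes. Only Parvb was called, and it was higher in ILK-K5 libraries. It had passed the filter only through these libraries, with means of 33.1 ± 5.34 in ILK-K5 and 2.08 ± 2.15 in control libraries (SD, n = 3), so that a tested Parvb had to differ. Among all 16368 genes tested 3.53% were called at an adjusted p of at most 0.05, and 2.93% were called higher, beside which the 1 call among the 8 members rests on a single gene. In Lims1, Parvb, Fermt2 and Tln1, all 3 ILK-K5 libraries lay above all 3 control libraries. This was the case for 4 of the 8 members and for 10.9% of all genes tested. The 4 include Parvb, which had to be higher to be tested. For none of the 8 did the libraries separate in the other direction, as 6.95% of all genes did. The median log2 fold change of the 8 members was 0.46, beside 0.0054 for all genes.

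**Figure D1:**
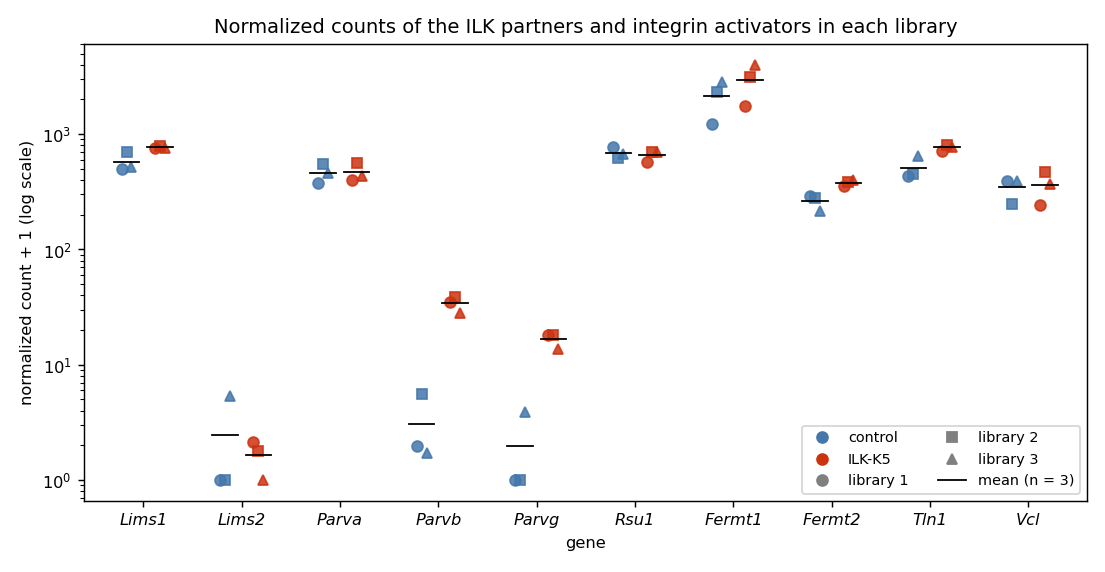
Normalized counts plus 1 on a log scale for the 10 members in each of the 3 control (blue) and 3 ILK-K5 (red) libraries, with symbols giving the library number and bars the mean. Parvb and Parvg lie near the bottom of the scale in controls and between 12.7 and 37.8 normalized counts in ILK-K5 libraries, whereas Parva, Rsu1 and Vcl overlap between genotypes.

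PINCH1, encoded by Lims1 (chr10:58323466-58424691, plus strand), carries the LIM domain that docks on ILK. Lims1 had 499, 693 and 522 normalized counts in the control and 755, 784 and 761 in the ILK-K5 libraries. The genotypes did not overlap, and the ILK-K5 libraries lay closer together than the controls. The difference did not pass the test (log2 fold change 0.44 ± 0.25 SE, 95% interval -0.13 to 1.002, limma adjusted p = 0.599). It was 0.60 between the libraries numbered 1 and 0.36 between the means of libraries 2 and 3, a split made because the library names of replicates 2 and 3 share a number that replicate 1 does not carry.

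PINCH2, encoded by Lims2 on chromosome 18, can take the place of PINCH1 in the trimer. Lims2 had 0, 0 and 6 reads in the control and 1, 1 and 0 in the ILK-K5 libraries, below the filter of the test. No call on its direction was possible at this depth. Lims1 therefore made up 97.6% or more of the PINCH FPKM (fragments scaled by gene length and library size) of each library in both genotypes.

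α-Parvin, the broadly expressed actin-binding parvin, is encoded by Parva (chr7:112427505-112591692, plus strand). Parva had 378, 547 and 456 normalized counts in the control and 401, 564 and 435 in the ILK-K5 libraries. The genotypes overlapped throughout and their means, 460 ± 84.7 and 467 ± 85.9 (SD, n = 3), differed by less than the spread between libraries. The log2 fold change was 0.02 ± 0.28 SE with a 95% interval from -0.60 to 0.64 (limma adjusted p = 0.991), and its sign turned under 5 of the alternative settings.

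β-Parvin also binds ILK and actin but recruits the Rac exchange factor α-PIX. Parvb had 1, 3 and 1 reads in the control libraries and 30, 49 and 28 in the ILK-K5 libraries. As normalized counts these were 0.965, 4.56 and 0.726, and 34.2, 37.8 and 27.3. Every ILK-K5 library was several times above the highest control. The log2 fold change was 3.67 ± 0.76 SE (95% interval 1.94 to 5.39, limma adjusted p = 0.0326). Because no control library exceeded 3 reads, the observed ILK-K5 mean was also set against a floor of 3 reads per control library, which it exceeded 10.3-fold. This floor holds for the observed reads and does not replace the 95% interval. Without the floor, the log2 difference was 4.16 between the libraries numbered 1 and 3.42 for libraries 2 and 3. The call was lost with a pseudocount of 0.1 (log2 fold change 4.36, limma adjusted p = 0.0629) and with quantile normalization (3.18, adjusted p = 0.0535). It was also lost with libraries 2 and 3 only (3.42, adjusted p = 0.0917) and without control library 3 (3.35, adjusted p = 0.0531). Leaving out any 1 of the ILK-K5 libraries lost it too (adjusted p = 0.133 without library 1, 0.214 without library 2 and 0.165 without library 3). The log2 fold changes of these fits ran from 3.57 to 3.79. The call held without control library 1 (3.45, adjusted p = 0.0372) and without control library 2 (4.20, adjusted p = 0.0298). Both count-based tests on the recovered reads called it (edgeR adjusted p = 0.0328, DESeq2 adjusted p = 0.000434), as they did 3.11% and 6.44% of all genes.

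γ-Parvin, encoded by Parvg, is the parvin of lymphoid and myeloid cells. Parvg had 0, 0 and 4 reads in the control and 15, 22 and 13 in the ILK-K5 libraries, or 0, 0 and 2.90 and 17.1, 16.97 and 12.7 normalized counts. The genotypes did not overlap, but the mean over all libraries, 8.27, was below the filter. In a fit of 34213 genes without the filter the log2 fold change was 3.38 ± 0.93 SE and missed the threshold (limma adjusted p = 0.112), where 1.78% of genes were called and 6.88% had all ILK-K5 libraries above all controls. The 8 leukocyte markers lay above their controls in the same 3 libraries as Parvb and Parvg, and Ptprc had 27.98, 22.8 and 50.8 normalized counts in the control and 1431, 1111 and 1010 in the ILK-K5 libraries. The part of these cells in the higher Parvb and Parvg counts was not tested.

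The shares of the parvins in their family, measured per length as FPKM, separated the genotypes. Because Parva was nearly level, these shares restate the Parvb and Parvg counts and are no separate result. Parva made up 99.4%, 98.1% and 97.6% of parvin FPKM in the control and 74.8%, 79.8% and 80.7% in the ILK-K5 libraries. Parvb contributed between 0.357% and 1.88% in controls and between 11.6% and 14.7% in ILK-K5 libraries, and Parvg between 0% and 2.04% and between 7.71% and 10.5%. The summed parvin FPKM overlapped between genotypes, with 3.84, 5.63 and 4.71 in the control and 5.41, 7.13 and 5.45 in the ILK-K5 libraries.

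The ratio of 2 FPKM values within a library depends on its size factor only through the pseudocount of 0.1, which matters for genes near 0. Such ratios, 7 in all, were compared with an exact two-sided permutation test over libraries. For this test 3 against 3 cannot give a p below 0.1. The log2 ratio of Parvb to Parva was higher by 2.57 in ILK-K5 libraries and that of Parvg to Parva by 2.27, both without overlap and both at this smallest p of the exact test (exact permutation p = 0.1, adjusted over the 7 ratios 0.233). Their sizes depended on the pseudocount. With 0.01 and 1 in place of 0.1, the Parvb ratio was higher by 4.03 and 0.74. The Parvg ratio was higher by 4.55 and 0.54, and both ratios stayed at exact permutation p = 0.1. Like the shares, both ratios restate the Parvb and Parvg counts, because Parva was nearly level between genotypes.

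**Figure D2:**
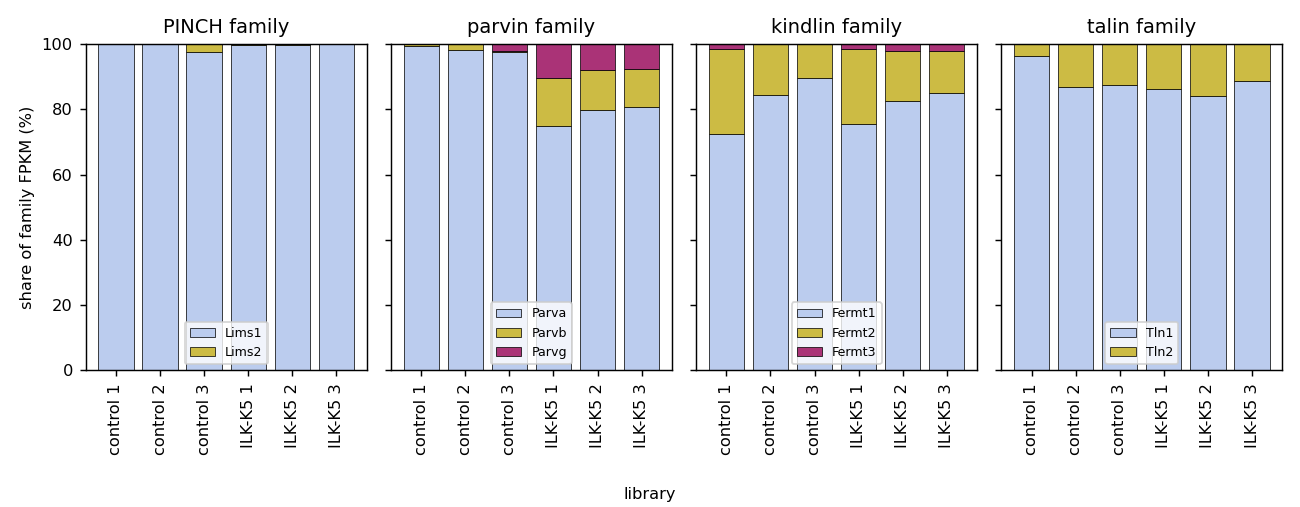
Share of each gene in the summed FPKM of its family (percent) in the 3 control and 3 ILK-K5 libraries, for the PINCH, parvin, kindlin and talin families. Parva holds between 97.6% and 99.4% of parvin FPKM in controls and between 74.8% and 80.7% in ILK-K5 libraries, whereas Lims1 and Fermt1 are the main member of their families in every library.

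Rsu1 (chr2:13076821-13271415, minus strand) encodes a leucine-rich repeat protein that binds the last LIM domain of PINCH1 and joins the complex as a further subunit. Rsu1 had 780, 620 and 669 normalized counts in the control and 572, 695 and 694 in the ILK-K5 libraries. The genotypes overlapped and differed by less than the spread between libraries (log2 fold change -0.08 ± 0.25 SE, 95% interval -0.63 to 0.48, limma adjusted p = 0.958). The difference was -0.45 between the libraries numbered 1 and 0.11 for libraries 2 and 3.

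The second comparison concerned the kindlins and talins, which bind the β tail and activate integrins, and vinculin, which binds talin. Kindlin-1, encoded by Fermt1 (chr2:132904389-132945906, minus strand), was the most abundant member per length in both genotypes, with 38.2 ± 14.8 FPKM in control and 53.2 ± 20.4 in ILK-K5 libraries. Fermt1 had 1222, 2322 and 2826 normalized counts in the control and 1750, 3127 and 4002 in the ILK-K5 libraries. Library 1 was the lowest of each genotype, and the ranges overlapped. The genotype difference was smaller than this spread (log2 fold change 0.48 ± 0.41 SE, 95% interval -0.43 to 1.40, limma adjusted p = 0.779), and was 0.52 between the libraries numbered 1 and 0.47 for libraries 2 and 3. Leaving out 1 library moved it from 0.13 (without control library 1) to 0.82 (without ILK-K5 library 1).

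Kindlin-2, the kindlin of most other tissues, is encoded by Fermt2 (chr14:45458795-45530118, minus strand). Fermt2 had 288, 281 and 213 normalized counts in the control and 353, 381 and 399 in the ILK-K5 libraries. All ILK-K5 libraries were above all controls, with means of 378 ± 23.4 and 261 ± 41.9 (SD, n = 3). The difference did not pass the test (log2 fold change 0.54 ± 0.27 SE, 95% interval -0.06 to 1.15, limma adjusted p = 0.491).

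The share of Fermt2 in kindlin FPKM varied with the library more than with the genotype. It was 26.1%, 15.5% and 10.3% in the control and 23.1%, 15.3% and 12.9% in the ILK-K5 libraries, so that library 1 had the highest share in each genotype. The log2 ratio of Fermt2 to Fermt1 differed by 0.058 between genotypes (exact permutation p = 0.9).

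Fermt3, which encodes kindlin-3 of platelets and leukocytes and is no member of the set, completed the family. Fermt3 had 10.6, 1.52 and 2.18 normalized counts in the control and 15.9, 39.3 and 42.9 in the ILK-K5 libraries. All ILK-K5 libraries were above all controls, but control library 1 came close to ILK-K5 library 1. With means of 4.77 in control and 32.7 in ILK-K5 libraries, Fermt3 passed the filter only through the latter. The difference missed the threshold (log2 fold change 2.78 ± 0.82 SE, limma adjusted p = 0.134) and passed it without control library 1 (log2 fold change 3.46, adjusted p = 0.0347). The 4 platelet markers summed to between 18.3 and 34.8 normalized counts in controls and to between 122 and 246 in ILK-K5 libraries, with 1 of 3 tested called higher and Gp9 at 0 in every library. The other 2 tested platelet markers had negative fold changes, and the median log2 fold change of the 3 was -0.072. The part of platelets or leukocytes in the Fermt3 counts was not tested. The log2 ratio of Fermt3 to Fermt2, which draws on the same Fermt3 counts, was higher by 1.84 in ILK-K5 libraries (exact permutation p = 0.1, adjusted 0.233). With a pseudocount of 0.01 this ratio was higher by 2.52, and with 1 by 0.44 (exact permutation p = 0.1 and 0.3).

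Talin-1, encoded by Tln1 (chr4:43531519-43562691, minus strand), is the actin-binding activator whose head domain opens the integrin. Tln1 had 430, 455 and 647 normalized counts in the control and 721, 805 and 772 in the ILK-K5 libraries. All ILK-K5 libraries were above all controls, and the means, 766 ± 42.6 and 510 ± 118 (SD, n = 3), stood in a ratio of 1.501. The log2 fold change of 0.61 ± 0.26 SE (95% interval 0.02 to 1.20) had an unadjusted limma p of 0.0454, and did not pass after adjustment (limma adjusted p = 0.384). Without adjustment, Tln1 and Parvb were the 2 of 8 members under the 0.05 limit, which 12.3% of all genes passed in either direction and 8.18% as higher. Of these 2, Parvb had to be higher to be tested. The Tln1 difference was 0.74 between the libraries numbered 1 and 0.54 for libraries 2 and 3.

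Its paralog Tln2, known from muscle and brain, had 20.3, 85.2 and 115 normalized counts in the control and 142, 192 and 122.7 in the ILK-K5 libraries (log2 fold change 1.34 ± 0.61 SE, limma adjusted p = 0.424). The Tln2 difference was 2.75 between the libraries numbered 1 and 0.63 for libraries 2 and 3, and 0.59 without control library 1. Tln1 held between 83.9% and 96.4% of talin FPKM in every library. The summed talin FPKM was 4.67, 5.47 and 7.73 in the control and 8.74, 10.04 and 9.11 in the ILK-K5 libraries, which did not overlap.

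Vinculin, encoded by Vcl (chr14:20929398-21033676, plus strand), is recruited to talin under tension. Vcl had 395, 248 and 395 normalized counts in the control and 241, 466 and 367 in the ILK-K5 libraries. The genotypes overlapped, and both the lowest and the highest value were found in ILK-K5 libraries. The log2 fold change was 0.03 ± 0.34 SE (95% interval -0.73 to 0.80, limma adjusted p = 0.988). It was -0.71 between the libraries numbered 1 and 0.40 for libraries 2 and 3, and 25.5% of the exon bases of Vcl lie over Ap3m1 on the opposite strand, whose reads cannot be separated. The log2 ratio of Tln1 to Vcl was higher by 0.57 in ILK-K5 libraries, with overlap (exact permutation p = 0.2).

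**Figure D3:**
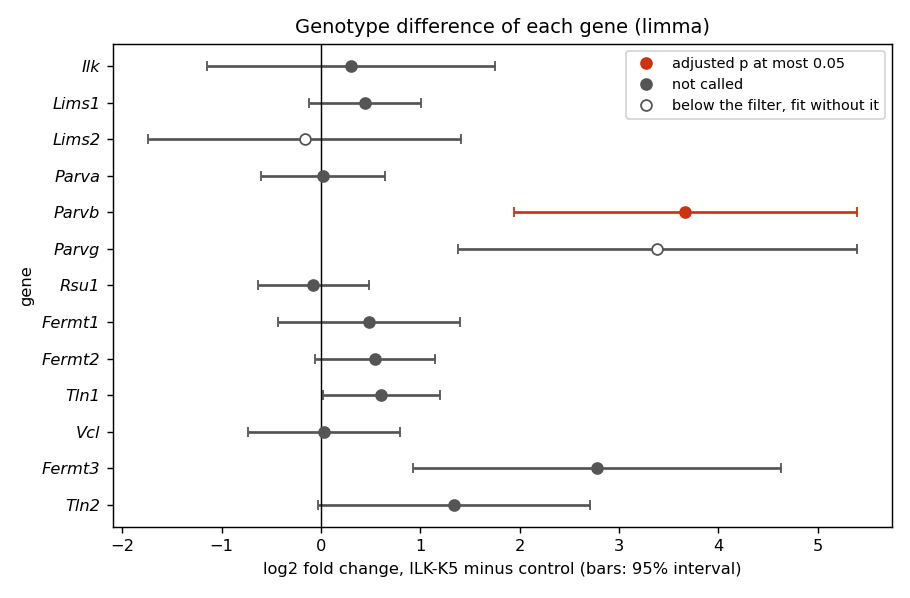
Log2 fold change (ILK-K5 minus control, x axis) with its 95% interval from limma for Ilk, the 10 members and the remaining paralogs Fermt3 and Tln2 (y axis), where red is an adjusted p of at most 0.05 and open circles are genes below the filter, fitted without it. Parvb is the only called gene at 3.67, Parvg is at 3.38 without a call, and the intervals of Parva, Rsu1 and Vcl lie on both sides of 0.

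Per length, the members formed a similar order in both genotypes. In control libraries Fermt1 was highest, followed by Lims1 at 12.0 ± 2.23 FPKM. Rsu1, Fermt2, Vcl, Tln1 and Parva followed with means from 7.61 to 4.65 FPKM, and each overlapped its neighbour in this order. Lims2, Parvb and Parvg were lowest with means of at most 0.0882 FPKM and overlapped one another. In ILK-K5 libraries Fermt1 and Lims1 (16.1 ± 0.319 FPKM) again led without overlap. Fermt2 was next at 10.3 ± 0.640 FPKM and was clear of Tln1 at 8.02 ± 0.446, whereas Tln1, Rsu1, Vcl and Parva overlapped their neighbours. Parvb at 0.768 ± 0.124 and Parvg at 0.517 ± 0.0835 FPKM were clear of each other and remained below Parva at 4.71 ± 0.867 FPKM.

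The third comparison set the members beside other adhesion genes that were not members. Among 19 tested of 20 other regulators of integrin activation, 1 was called higher and 0 lower, with a median log2 fold change of 0.52. Over all genes tested 2.93% were called higher, 8265 of 16368 had a positive fold change and the median was 0.0054, and the counts of the other lists stand beside the same background. The called gene was Apbb1ip, which encodes RIAM, the adaptor that brings talin to the membrane in blood cells. Apbb1ip had 11.6, 7.60 and 0.726 normalized counts in the control and 184, 110 and 69.2 in the ILK-K5 libraries (log2 fold change 4.30 ± 0.80 SE, limma adjusted p = 0.0190). Its means were 6.64 in control and 121 in ILK-K5 libraries. Like Parvb, it passed the filter only through the ILK-K5 libraries, so that a tested Apbb1ip had to differ. Among the abundant genes of this list, Flna, which encodes filamin A, a competitor of talin for the integrin tail, had a log2 fold change of 1.03 ± 0.33 SE and was not called (limma adjusted p = 0.175).

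Of 28 focal adhesion signalling genes, all tested, 4 were called higher and 0 lower, 25 had a positive and 3 a negative fold change, and the median was 0.35, beside 2.93% called higher and a median of 0.0054 over all genes. Arhgef6 encodes α-PIX, the exchange factor bound by β-parvin. Arhgef6 had 13.5, 19.8 and 19.6 normalized counts in the control and 520, 414 and 383 in the ILK-K5 libraries (log2 fold change 4.57 ± 0.36 SE, limma adjusted p = 0.000298). The other called genes were Elmo1 (log2 fold change 1.95), Ptk2b, which encodes the focal adhesion kinase relative PYK2 (1.72), and the tyrosine phosphatase gene Ptpn1 (1.28). The most abundant genes of the list, the scaffold gene Nedd9 and the adaptor gene Crk, had log2 fold changes of 0.998 ± 0.25 and 0.11 ± 0.24 SE (limma adjusted p = 0.0751 and 0.936).

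Of 29 genes that link adhesions to actin, all tested, 1 was called higher and 0 lower, and 18 had a positive and 11 a negative fold change, with a median of 0.35. A single call among 29 genes is close to the 2.93% called higher over all genes. The LIM protein gene Fhl2 was the called gene, with 18.3, 27.4 and 29.02 normalized counts in the control and 129, 167 and 109 in the ILK-K5 libraries (log2 fold change 2.40 ± 0.41 SE, limma adjusted p = 0.0128). The most abundant genes, Tns4 (tensin 4) and Enah (Mena), had log2 fold changes of -0.79 ± 0.28 and -0.18 ± 0.42 SE and were not called (limma adjusted p = 0.248 and 0.939). The leukocyte and macrophage marker sums given above moved in the same direction as the called genes of these lists, and their part was not tested.

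**Figure D4:**
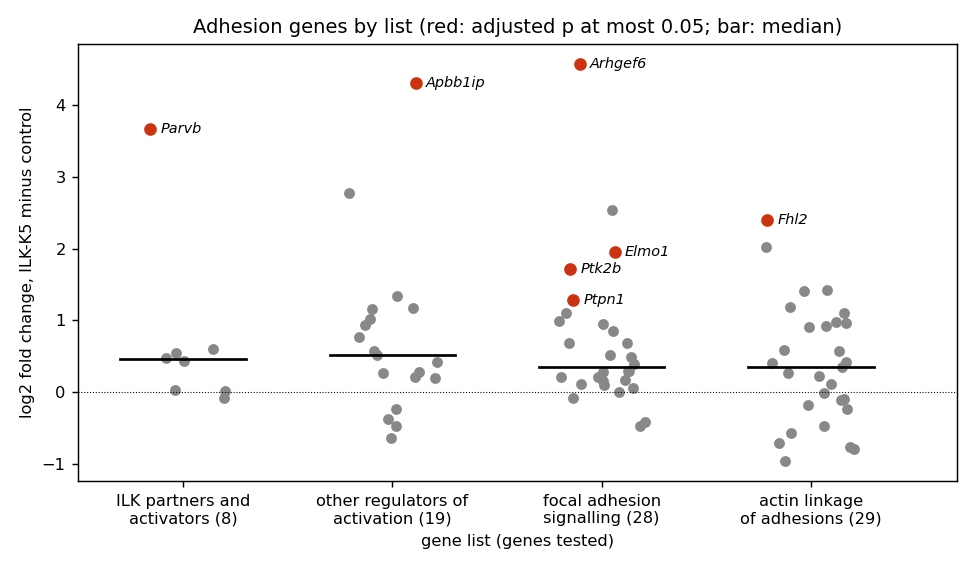
Log2 fold change (ILK-K5 minus control) of each tested gene in the 4 adhesion lists, with the median as a bar and called genes in red. The medians lie between 0.35 and 0.52, and all called genes, Parvb among the 8 members and 6 genes in the other lists, are higher in ILK-K5 libraries. Over all genes tested, 2.93% were called higher and 0.599% lower. Parvb and Apbb1ip passed the filter only through ILK-K5 libraries and so had to be higher to be tested.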

How the data were processed

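RNA was amplified with Ovation V2, made into Nextera XT libraries, which do not mark strand, and sequenced as read pairs. The authors removed ribosomal reads and aligned to GRCm38 (the submitters' processing notes name TopHat2 2.0.14, Bowtie2 2.2.4 and DESeq2 1.6.3), whereas the counting program is not given in the sources used here. The authors deposited a normalized signal, the reads of each gene scaled per library, from which 100% of values gave whole reads (tolerance 0.01), and FPKM, which equal these values times a constant per gene. The deposited table of the authors' own comparison (means, log2 fold changes, errors, p-values) was not used.

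Genotypes were compared on log2(normalized count + 1), a scale that understates changes of low genes, with limma 3.58.1 (trended eBayes, two-sided, no covariate) in R 4.3.3, over genes with a mean of at least 10, with Benjamini-Hochberg adjustment and a limit of 0.05. Counts were also tested with edgeR 4.0.16 and DESeq2 1.42.0. FPKM ratios used a pseudocount of 0.1. Intervals cover 95% and are unadjusted. Positions and overlaps are from GENCODE M21. The fits were also run on simulated counts with the same dispersion for all genes and larger changes than those of most members. These runs do not show how often differences as small as those of most members would be called. Named genes are Ilk, the members, remaining paralogs, and in each adhesion list the called genes and the 2 most abundant, of which 1 is not reported here. The members and lists were chosen with earlier results of these data known.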

Additional observations from a re-analysis of the deposited data

How the results depend on the processing

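Across 18 alternatives and all genes, 222 to 848 genes were called higher and 32 to 286 lower: 772 and 280 with DESeq2, 848 and 269 with the replicate block, 846 and 286 with a term for the number in the library name, and 222 to 559 and 32 to 98 with 1 library left out. Of the members, Parvb was the only one called in any alternative above the filter, and 0 members were called with a pseudocount of 0.1 (Parvb 4.36, limma adjusted p = 0.0629), with quantile normalization (3.18, adjusted p = 0.0535), with replicates 2 and 3 only (3.42, adjusted p = 0.0917) and with a mean of at least 50, where Parvb is not tested. With 1 library left out 0 to 1 members were called. Same-numbered deviations from the genotype mean correlated at 0.0198 for replicate 2 and 0.307 for replicate 3. Control library 3 correlated best with ILK-K5 library 2 (0.498). These values do not settle whether replicate numbers 2 and 3 paired the libraries. Control library 1 and ILK-K5 library 1, whose names share a number, correlated at 0.529. With the other libraries of the opposite genotype, these 2 libraries correlated at -0.553 to -0.0600. Deviations sum to 0 within each genotype, so a positive value with 1 library forces a negative value with another. The negative values are thus no separate evidence. The replicate block left 1 of the 8 members called, and without the filter it called Parvg (adjusted p = 0.0323). Fermt3 was called with DESeq2 (2.72, adjusted p = 0.0474) and with replicates 2 and 3 only (3.89, adjusted p = 0.0261). The alternatives with replicates 2 and 3 only and those for genes below the filter were chosen after seeing the data.

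Other regulators of integrin activation gave 2 calls with DESeq2, the replicate block and replicates 2 and 3 only. With 1 library left out this list gave 0 to 2. Focal adhesion signalling gave 2 with a pseudocount of 0.1, the FPKM table, edgeR and replicates 2 and 3 only. The same list gave 5 with the replicate block, 6 with DESeq2, 6 with the number term and 1 to 4 with 1 library left out. Actin linkage gave 3 with DESeq2, 4 with the replicate block, 6 with the number term and 0 to 1 with 1 library left out. The median of the other regulators was 0.32 with replicates 2 and 3 only and 0.40 to 0.73 with 1 library left out, and that of focal adhesion signalling 0.26 to 0.54. Log2 fold changes within their error of 0 turned sign. With 1 library left out, Ilk ranged from -0.094 to 0.79, Parva from -0.12 to 0.15, Rsu1 from -0.15 to 0.016 and Vcl from -0.19 to 0.29, and without the filter Lims2, at 0 to 6 reads, from -0.57 to 0.64. Parva was at -0.0050 with quantile normalization, -0.0022 with DESeq2 and -0.012 with replicates 2 and 3 only, Rsu1 at 0.11 with replicates 2 and 3 only, Vcl at -0.035 with quantile normalization and Lims2 at 0.43 with a pseudocount of 0.1. The log2 ratio of Fermt2 to Fermt1 ranged from -0.33 to 0.49 and that of Lims2 to Lims1 from -1.08 to 0.059 with 1 library left out, and that of Tln2 to Tln1 was -0.0036 with a pseudocount of 1. The cause was not tested. Depth limits Lims2, Parvb and Parvg, whose control libraries hold 0 to 6 reads each.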
